A study of Mus musculus with 6 samples.

Results

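Genes of mast cells and their growth factor, 10 of the 17312 genes in the deposited table, were followed through 6 mouse leg tumors. They were chosen by name, with earlier results of these data known. They include the granule proteases Cpa3, Cma1, Mcpt4 and Tpsb2, and the receptors Kit, Fcer1a and Ms4a2. The others are the histamine enzyme Hdc, the transcription factor Gata2, and Kitl, the ligand of Kit. Of the tumors, 3 arose in mice with a Cre-lox inducible allele of SS18-SSX1 and 3 in mice with such an allele of SS18-SSX2, both forms of the fusion oncogene of synovial sarcoma. In all of them TATCre, purified Cre recombinase made able to enter cells, had been injected into soft tissue over the tibia, and the tumors were taken about 1 year after that with no other treatment. The Cre was a protein placed at the site and not a transgene with a cell type promoter, so the labels do not name the cell that recombined. Strain, sex and immune status were not given in the sources used here, nor was it stated that each tumor came from a separate mouse, so each p-value reflects the spread between tumors as deposited, which may in part be technical. Levels were FPKM, fragments per kilobase of gene scaled to library size, and so can be compared between genes per length.

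Mast cells are tissue-resident immune cells that store histamine, heparin and serine and carboxypeptidase proteases in granules and release them when the IgE receptor is crosslinked. They mature in tissues such as skin and muscle fascia and depend there on stem cell factor, the product of Kitl, which binds the tyrosine kinase receptor Kit on their surface. Gata2 is needed to form and maintain them, but is also used by blood progenitors and endothelium, and Kit is also found on melanocytes and some progenitors. In bulk tumor RNA, fewer cells of a type and less RNA per cell cannot be told apart.

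Mast cell RNA was present in every tumor and very uneven. The list of 13 mast cell markers used here holds the members other than Kitl and Gata2, with Tpsab1, Mrgprb1, Mrgprb2, Slc18a2 and Cyp11a1. All 13 had a value above 0 in all 6 tumors. That value was 1 read for Slc18a2 in SS18-SSX2 tumor 1 and for Mrgprb2 in SS18-SSX2 tumor 3. The number of markers at 1 FPKM or more was 12, 8 and 13 for tumors 1, 2 and 3 with SS18-SSX1. With SS18-SSX2 it was 5, 8 and 5 for tumors 1, 2 and 3. The summed level of the 13 markers was 113, 68.0 and 2620 FPKM with SS18-SSX1, against 32.4, 68.1 and 14.6 FPKM with SS18-SSX2. SS18-SSX1 tumor 3 therefore held 0.685% of its summed FPKM in these 13 genes, against 0.00457% to 0.0409% in the other 5 tumors. This tumor stands apart, and the members' differences between genotypes are given both with and without it. The values of low genes come in steps of whole reads, which put 7285853 to 17546227 reads behind a tumor. SS18-SSX2 tumor 2 was the shallowest and SS18-SSX1 tumor 3 the deepest.

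Markers of the cells most easily taken for mast cells were low. The basophil markers, of which Mcpt8 is not analysed here, summed to 0.339, 0.965 and 4.19 FPKM with SS18-SSX1, against 1.40, 0.679 and 1.04 FPKM with SS18-SSX2. Nearly all of the sum in SS18-SSX1 tumor 3 was the basophil protease Prss34, at 4.03 FPKM there, listed at 0 in SS18-SSX1 tumor 1 and at most 0.896 FPKM in the other tumors. Its part in the mast cell values was not tested. The 2 melanocyte markers in the table summed to 0.644 to 4.89 FPKM, with 1.44 FPKM in SS18-SSX1 tumor 3. Ccr3, the 1 eosinophil marker in the table, reached at most 0.461 FPKM. Muscle markers were high in tumor 2 of each genotype, whose summed levels were 9001 FPKM (SS18-SSX1) and 4249 FPKM (SS18-SSX2), against 90.1 to 405 FPKM in the other 4 tumors. Within its genotype, SS18-SSX1 tumor 2 had the lowest sum of mast cell markers and SS18-SSX2 tumor 2 the highest. The part of muscle content in these values was not tested.

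The 4 granule proteases had the highest mean levels of the 13 mast cell markers, and the same tumors at the top and the bottom. Cpa3, a carboxypeptidase stored with heparin, was at 22.7, 10.6 and 538 FPKM in tumors 1, 2 and 3 with SS18-SSX1, against 5.64, 12.8 and 1.73 FPKM in tumors 1, 2 and 3 with SS18-SSX2. It was thus 23.7-fold higher in SS18-SSX1 tumor 3 than in the next tumor, and the groups overlapped because SS18-SSX2 tumor 2 exceeded SS18-SSX1 tumor 2. Cma1, a chymase of connective tissue mast cells, was at 17.5, 15.2 and 625 FPKM with SS18-SSX1, against 6.54, 12.3 and 2.53 FPKM with SS18-SSX2. Here no SS18-SSX2 tumor reached the lowest SS18-SSX1 tumor. Mcpt4, another connective tissue chymase, was at 28.7, 15.3 and 557 FPKM with SS18-SSX1, against 5.91, 14.1 and 2.39 FPKM with SS18-SSX2. Its groups also did not overlap, by a gap of about 1 FPKM between tumor 2 of each genotype. The 2 values beside that gap rest on 208 and 102 reads. For Cma1 the gap lies between the same tumors, at 225 and 96 reads. No counting intervals were computed at these values, so the gaps were not set against counting error. Tpsb2, a tryptase that assembles into heparin-bound tetramers, was at 16.9, 15.8 and 566 FPKM with SS18-SSX1, against 7.13, 16.1 and 3.29 FPKM with SS18-SSX2, and its groups overlapped at tumor 2. In all 4 genes the highest tumor was SS18-SSX1 tumor 3, the second SS18-SSX1 tumor 1 and the lowest SS18-SSX2 tumor 3.

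Within a tumor the 4 proteases were expressed at like levels per length. Of their summed FPKM in SS18-SSX1 tumor 3, Cpa3 made up 23.5%, Cma1 27.3%, Mcpt4 24.4% and Tpsb2 24.7%. Over all 6 tumors the share ranged from 17.4% to 26.5% for Cpa3, from 20.4% to 27.3% for Cma1, from 23.4% to 33.4% for Mcpt4 and from 19.7% to 33.1% for Tpsb2. The sum itself ran from 9.93 FPKM in SS18-SSX2 tumor 3 to 2285 FPKM in SS18-SSX1 tumor 3, a much wider range than that of any share. The lowest values rest on few reads: 36 for Cpa3 (95% exact Poisson interval 1.21 to 2.39 FPKM, counting error only) and 51 for Tpsb2 in SS18-SSX2 tumor 3.

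Promoter sequences of 5 members that were highest in the same tumor are shown because they hold the motif bound by GATA factors. They are the 120 bases before the RefSeq start on GRCm38.p6, all on the minus strand, 5′ to 3′, with each motif in capitals.
Cpa3, chr3:20242182-20242301: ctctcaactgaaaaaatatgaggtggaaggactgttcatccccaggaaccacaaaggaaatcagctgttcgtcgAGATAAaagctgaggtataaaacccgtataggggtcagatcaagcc
Cma1, chr14:55944676-55944795: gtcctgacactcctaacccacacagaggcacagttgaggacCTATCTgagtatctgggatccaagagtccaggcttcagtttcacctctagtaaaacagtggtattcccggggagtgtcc
Mcpt4, chr14:56062311-56062430: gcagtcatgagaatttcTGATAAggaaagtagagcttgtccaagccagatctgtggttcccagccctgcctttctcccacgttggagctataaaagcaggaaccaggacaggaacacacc
Fcer1a, chr1:173227230-173227349: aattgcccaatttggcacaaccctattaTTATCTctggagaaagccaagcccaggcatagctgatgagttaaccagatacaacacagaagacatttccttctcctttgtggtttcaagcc
Ms4a2, chr19:11623720-11623839: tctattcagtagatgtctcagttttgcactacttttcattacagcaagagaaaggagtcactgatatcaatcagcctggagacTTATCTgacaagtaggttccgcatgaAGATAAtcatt

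The motif was searched as AGATAA, with T also allowed as its first letter and G as its last, on both strands, in the 250 bases before each start. It began 46 bases before the start in Cpa3, 79 in Cma1, 103 in Mcpt4 and 92 in Fcer1a, and at 37 and 11 bases in Ms4a2. Of the 9 members with a promoter sequence, all but Tpsb2, 6 held it: these 5 and Hdc. Kit, Kitl and Gata2 did not have these letters in the window. Over all genes with such a sequence, 29.7% held the motif. A match describes the letters only and is not evidence of binding.

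Fcer1a and Ms4a2, chains of the high-affinity IgE receptor, were, like the proteases, highest in SS18-SSX1 tumor 3. Ms4a2 was lowest in SS18-SSX2 tumor 1, while Fcer1a and the proteases were lowest in SS18-SSX2 tumor 3. Fcer1a, the chain that binds IgE, was at 3.66, 1.84 and 167 FPKM in tumors 1, 2 and 3 with SS18-SSX1, against 0.939, 2.94 and 0.204 FPKM in tumors 1, 2 and 3 with SS18-SSX2. It had the widest fold range of the 10 members, with SS18-SSX1 tumor 3 at 45.5-fold the next tumor and SS18-SSX2 tumor 3 at 3 reads (95% exact Poisson interval 0.0420 to 0.595 FPKM). Ms4a2, the beta chain that amplifies the signal, was at 1.42, 0.385 and 26.9 FPKM with SS18-SSX1, against 0.208, 1.14 and 0.316 FPKM with SS18-SSX2. Outside SS18-SSX1 tumor 3 it had only 4 to 25 reads per tumor, and the counting intervals of neighbours in the order of these 5 tumors overlapped. The groups overlapped for both genes. Hdc, which makes histamine from histidine, was at 1.52, 1.71 and 8.54 FPKM with SS18-SSX1, against 0.194, 0.687 and 0.240 FPKM with SS18-SSX2. Its groups did not overlap, and it passed the filter on low values only through the 3 SS18-SSX1 tumors.

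**Figure D1:**
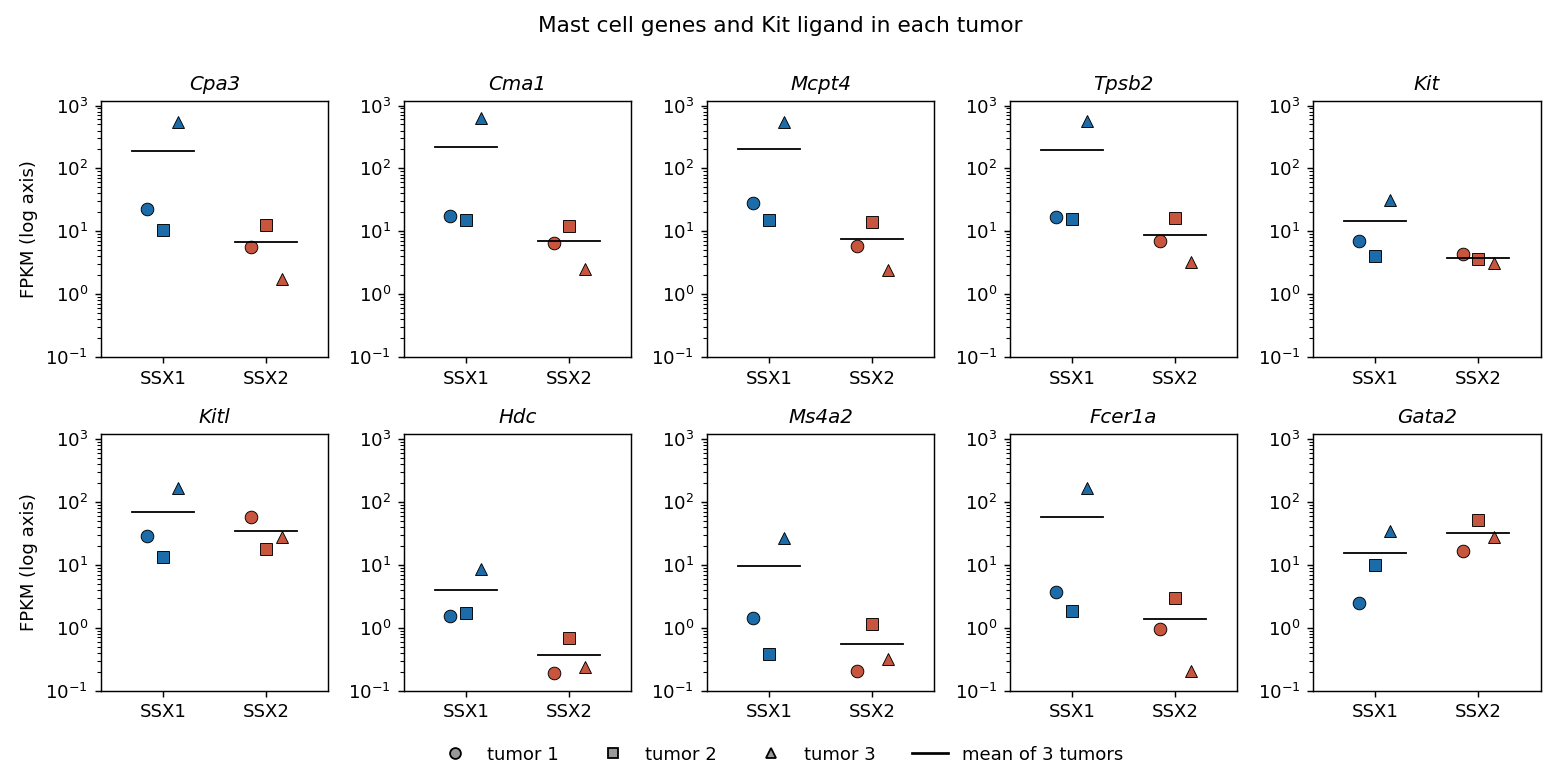
FPKM of each gene (log axis) in the 3 SS18-SSX1 tumors (blue) and the 3 SS18-SSX2 tumors (red), with the tumor number as the marker shape and the mean of a genotype as a line. SS18-SSX1 tumor 3 (blue triangle) is highest for every gene but Gata2, and pulls up the SS18-SSX1 mean.

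Kit and its ligand stood out less in SS18-SSX1 tumor 3 than the proteases did. Kit was at 7.07, 4.11 and 32.0 FPKM in tumors 1, 2 and 3 with SS18-SSX1, against 4.37, 3.70 and 3.09 FPKM in tumors 1, 2 and 3 with SS18-SSX2. SS18-SSX1 tumor 3 was 4.52-fold above the next tumor, and the other 5 tumors lay between 3.09 and 7.07 FPKM. The mean level of the 4 proteases was 17.9 times that of Kit in SS18-SSX1 tumor 3, 1.44 to 3.74 times in 4 tumors and 0.803 times in SS18-SSX2 tumor 3. Kit was lowest in that last tumor too, but within 2.29-fold of SS18-SSX1 tumor 1, while Cpa3 there was 13.1-fold below SS18-SSX1 tumor 1. Kitl was at 28.3, 13.3 and 167 FPKM with SS18-SSX1, against 57.3, 17.9 and 27.7 FPKM with SS18-SSX2. Its highest value was in the tumor richest in mast cell RNA, 2.91-fold above the next. That next tumor, however, was SS18-SSX2 tumor 1, whose proteases were the second lowest, and the lowest Kitl was in SS18-SSX1 tumor 2. Kitl exceeded Kit in all 6 tumors, by 4.01, 3.23 and 5.21 times with SS18-SSX1 and by 13.1, 4.85 and 8.95 times with SS18-SSX2.

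Of the 10 members, 9 were highest in SS18-SSX1 tumor 3, against 24.6% of all tested genes. The members were chosen with earlier results of these data known, so this count only describes them. Gata2 was the exception. It was at 2.51, 9.82 and 34.6 FPKM in tumors 1, 2 and 3 with SS18-SSX1, against 16.6, 50.9 and 27.6 FPKM in tumors 1, 2 and 3 with SS18-SSX2. It was highest in SS18-SSX2 tumor 2 and lowest in SS18-SSX1 tumor 1, which had the second highest protease levels. Tal1, a partner of Gata factors in blood cells and endothelium, was at 0.960, 4.11 and 7.18 FPKM with SS18-SSX1, against 5.14, 15.9 and 7.90 FPKM with SS18-SSX2. The top and the bottom tumor were thus the same for Tal1 and Gata2. Endothelial markers, 8 of 8 in the table, summed to 99.2, 21.2 and 53.8 FPKM with SS18-SSX1, against 109, 27.7 and 103 FPKM with SS18-SSX2, and so were second lowest in the tumor with most Gata2. Macrophage markers, 8 of 8 in the table, summed to 41.8, 310.4 and 343 FPKM with SS18-SSX1, against 129, 554 and 143 FPKM with SS18-SSX2, and like Gata2 were highest in SS18-SSX2 tumor 2 and lowest in SS18-SSX1 tumor 1. The part of these cells in the Gata2 level was not tested.

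The comparison of genotypes asks whether tumors driven by SS18-SSX2 differ from those driven by SS18-SSX1. None of the 10 genes was called by limma on log2(FPKM + 1), with Benjamini-Hochberg adjustment over the 13873 genes tested and a threshold of 0.05 (0 of 10 called, 2 with an unadjusted p under 0.05, Mcpt4 and Hdc). Of all tested genes, 9 (0.0649%) were called, and 0.0216% were called as lower with SS18-SSX2. An unadjusted p under 0.05 was found for 689 of them. The mean was lower with SS18-SSX2 for 9 of the 10 genes and higher for Gata2, with a median log2 difference of -2.11, against 0.01 over all tested genes, of which 48.9% were lower. The groups did not overlap for Cma1, Mcpt4 and Hdc. For Hdc this was fixed by the filter, which it passed because all 3 SS18-SSX1 tumors and no SS18-SSX2 tumor reached 1 FPKM, so neither its overlap nor its p is read as a result. Cma1 and Mcpt4 stand beside 8.72% of all tested genes without overlap, and 3.76% without overlap and lower with SS18-SSX2. The members share tumors and so are not independent. Ddx3y, a gene of the Y chromosome, was at 28.2 to 35.2 FPKM in the SS18-SSX1 tumors and at 0 to 0.0148 FPKM in the SS18-SSX2 tumors. Xist, a gene of the X chromosome, was at 3.58 to 7.03 FPKM in the SS18-SSX1 tumors and at 56.3 to 175 FPKM in the SS18-SSX2 tumors. Genotype therefore cannot be told apart from sex, or from sex-linked expression, in any value of this comparison.

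For the proteases and Fcer1a, differences of several fold came with a wide spread among the SS18-SSX1 tumors. Mcpt4 had 200.3 ± 309 FPKM with SS18-SSX1, against 7.48 ± 6.03 FPKM with SS18-SSX2 (SD, n = 3 each), a log2 difference of -3.19 with SE 1.23 (limma adjusted p = 0.912). Cpa3 had 190.5 ± 301 and 6.71 ± 5.59 FPKM, and Fcer1a had 57.3 ± 94.6 and 1.36 ± 1.42 FPKM, with log2 differences of -3.07 (SE 1.33) and -2.64 (SE 1.40). For each of these 3 genes the SD exceeded the mean in the SS18-SSX1 tumors. Hdc had 3.92 ± 4.0 and 0.374 ± 0.273 FPKM, a log2 difference of -1.57 (SE 0.53), given as a description. Kit differed by -1.24 (SE 0.63), Kitl by -0.38 (SE 0.86) and Gata2 by 1.42 (SE 0.79) on the log2 scale, each with limma adjusted p = 0.997. The scale understates the change of genes near 0.

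Without SS18-SSX1 tumor 3 the log2 difference was -1.40 for Cpa3 (SE 0.69), -1.29 for Cma1 (SE 0.54), -1.63 for Mcpt4 (SE 0.63) and -1.04 for Tpsb2 (SE 0.56). It was -0.80 for Fcer1a, -0.28 for Ms4a2, -0.45 for Kit and -0.94 for Hdc. Kitl changed sign, to 0.63 (SE 0.54), and Gata2 moved to 2.27 (SE 0.61). Gata2 also rested on SS18-SSX1 tumor 1, its lowest value: without that tumor its difference was 0.60 (SE 0.62), and without SS18-SSX2 tumor 2 it was 1.02 (SE 0.87). With 8 genes lower and 2 higher, and a median of -0.87, none was called by limma (0 of 10 called, 3 with an unadjusted p under 0.05, lowest adjusted p = 0.528, for Gata2). Those 3 were Mcpt4, Hdc and Gata2, beside 872 of the 13873 genes tested. The p of Hdc is again not read as a result. Leaving out SS18-SSX1 tumor 3 made the difference smaller for the 4 proteases, Fcer1a, Ms4a2, Kit and Hdc. The difference became larger for Gata2 and of the opposite sign for Kitl. All of these shifts were upward, which was fixed in advance. This tumor had the highest SS18-SSX1 value of each of the 10 genes, so only the sizes of the shifts could vary.

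**Figure D2:**
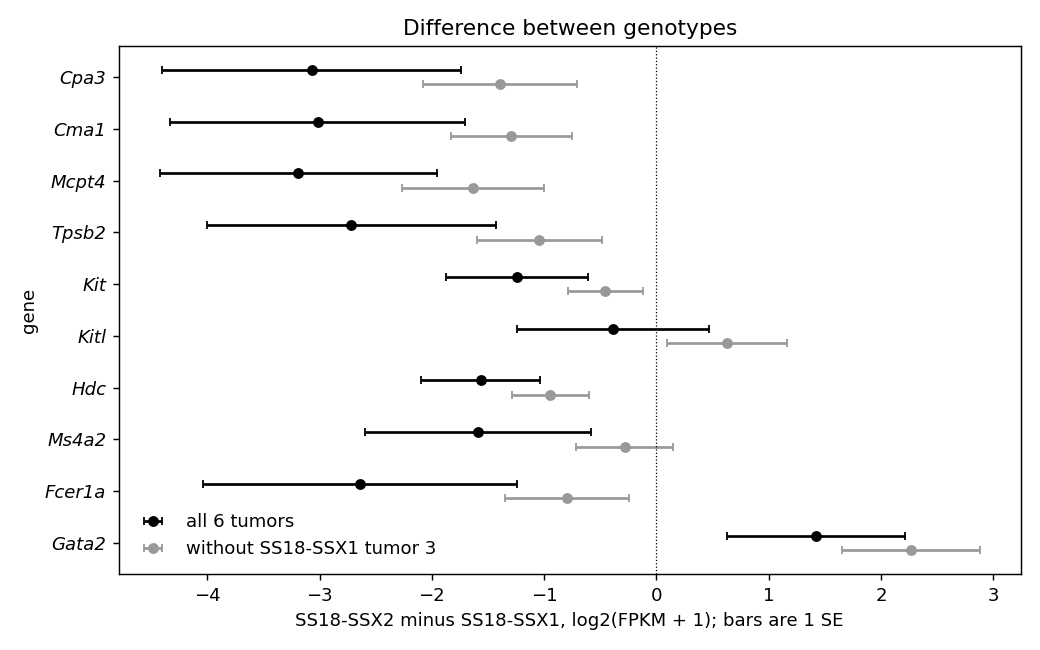
Difference between genotypes in log2(FPKM + 1), positive where SS18-SSX2 is higher, with bars of 1 SE from limma, over all 6 tumors (black) and without SS18-SSX1 tumor 3 (grey). The proteases move from about -3 to between -1.63 and -1.04, Kitl crosses 0 to 0.63, and Gata2 stays positive.

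Other mast cell genes, given from lists by role, were mostly highest in SS18-SSX1 tumor 3 too, as were 22.8% of all genes in the table. The lists were also chosen with earlier results of these data known, so their counts are descriptions. Among other proteases, 3 of 4 in the table were highest there and none was called. Tpsab1, the other tryptase, was at 7.46, 1.08 and 17.8 FPKM with SS18-SSX1, against 0.559, 1.25 and 0.233 FPKM with SS18-SSX2 (limma adjusted p = 0.840). The ratio of Tpsb2 to Tpsab1 was 2.26 in SS18-SSX1 tumor 1, 12.8 to 14.7 in 4 tumors and 31.8 in SS18-SSX1 tumor 3, so the 2 tryptases did not keep a fixed ratio. Their annotated transcripts align at 76.1% identity over 830 bases. Mcpt2, a chymase of mucosal mast cells, reached 3.29 FPKM in SS18-SSX1 tumor 3 and was listed at 0 in SS18-SSX1 tumor 1. Its transcripts align to those of Mcpt4 at 77.9% identity over 979 bases, and how reads were shared between them was not tested. Tpsg1, a membrane-anchored tryptase, reached 5.74 FPKM in SS18-SSX1 tumor 3 and at most 0.68 FPKM elsewhere. Ctsg, cathepsin G, stayed at or below 0.899 FPKM and was the 1 protease highest in another tumor.

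Of 11 genes of granule storage and of amine and lipid mediators, 9 were highest in SS18-SSX1 tumor 3, 5 were tested and none was called (median log2 difference -0.42, 0 higher and 5 lower with SS18-SSX2). Slc18a2, the vesicle transporter that loads histamine and serotonin, was at 1.15, 0.229 and 9.53 FPKM with SS18-SSX1, against 0.0181, 0.397 and 0.0549 FPKM with SS18-SSX2. Cyp11a1, a steroid-synthesis enzyme also found in mast cells, had 9.92 FPKM in SS18-SSX1 tumor 3 and 0.233 to 1.52 FPKM elsewhere. Srgn, the core protein that carries granule heparin, had 36.8 FPKM there and 4.47 to 15.8 FPKM elsewhere. Alox5ap, an activator of leukotriene synthesis found in many myeloid cells, had 22.1 FPKM there and 1.32 to 7.73 FPKM elsewhere. Cd63, a membrane protein of granules and lysosomes in most cells, and Ndst2, an enzyme of heparin synthesis, were each highest in another tumor.

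Among other receptors and factors, 8 of 11 were highest in SS18-SSX1 tumor 3, 5 were tested and none was called (median log2 difference -0.35, 2 higher and 3 lower). Mrgprb2, the receptor through which basic peptides and drugs activate mast cells of connective tissue, was at 0.579, 0.175 and 21.6 FPKM with SS18-SSX1, against 0.265, 0.993 and 0.0336 FPKM with SS18-SSX2. Its neighbour Mrgprb1 was at 2.84, 0.885 and 41.8 FPKM and at 0.444, 0.787 and 0.0666 FPKM. Both stood 14.7-fold or more above the next tumor in SS18-SSX1 tumor 3. Il1rl1, the receptor of the alarmin IL-33, was at 42.1 FPKM there and at 0.283 to 1.51 FPKM elsewhere. Mitf, a factor of mast cells and melanocytes, had 7.03 FPKM there and 2.48 to 3.97 FPKM elsewhere. Cadm1, an adhesion molecule of mast cells and many other cells, ranged only from 37.4 to 72.8 FPKM and was highest in SS18-SSX1 tumor 1.

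In the IgE receptor signalling list 4 of 11 genes were highest in SS18-SSX1 tumor 3, beside 22.8% of all genes in the table, and 10 were tested and none called (median log2 difference 0.05, 6 higher and 4 lower). Fcer1g, the gamma chain that the IgE receptor shares with Fc receptors of macrophages, had 2.72, 8.53 and 25.2 FPKM with SS18-SSX1, against 4.73, 17.8 and 3.66 FPKM with SS18-SSX2. It was high both in the tumor richest in mast cell markers and in the one richest in macrophage markers. Lat2, an adaptor of mast cells and other immune cells, had the same top pair, with 30.1 FPKM at its highest and 1.65 to 10.03 FPKM in the other 5 tumors. The kinases Lyn, Fyn and Syk and the phospholipase Plcg1 were each highest in another tumor.

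For the 13 genes of Kit signalling the median log2 difference was -0.13, with 5 higher and 8 lower, and none called (1 with an unadjusted p under 0.05). Of these 13, 3 were highest in SS18-SSX1 tumor 3, a share near that of all genes. Shc1, an adaptor of receptor tyrosine kinases, had 50.1 FPKM there and 25.6 to 33.4 FPKM elsewhere. Pik3r1, a regulatory subunit of PI3 kinase, had 27.3 FPKM there, less than the 88.7 and 65.8 FPKM of SS18-SSX1 tumors 1 and 2. Cbl, a ubiquitin ligase that turns over Kit, had 11.5 to 17.9 FPKM with SS18-SSX1, against 20.7 to 22.8 FPKM with SS18-SSX2. Grb2, an adaptor that links receptor kinases to Ras, had 20.3 to 22.7 FPKM with SS18-SSX1, against 15.1 to 19.7 FPKM with SS18-SSX2, and so differed in the opposite direction. The groups did not overlap for these 2 of the 13 genes, beside 8.72% of all tested genes, and neither passed (limma adjusted p = 0.9898 for Cbl and 0.997 for Grb2).

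**Figure D3:**
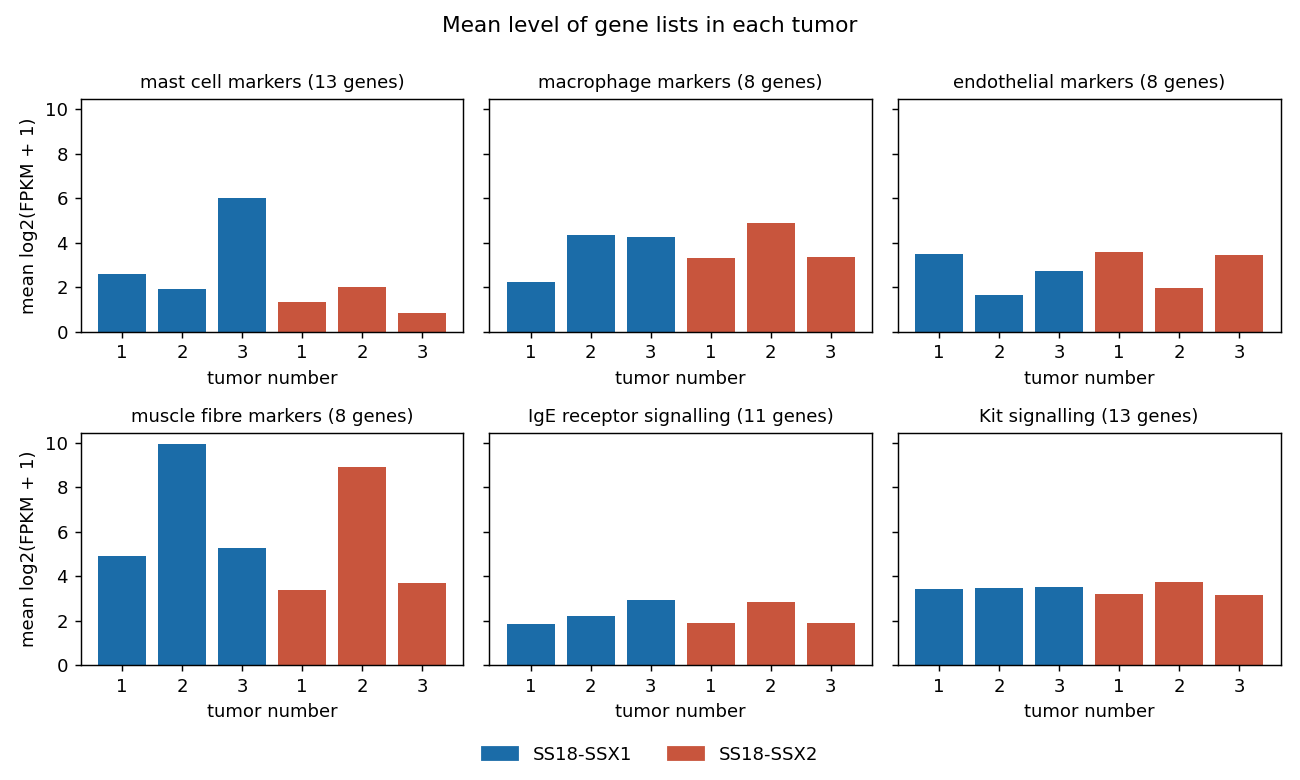
Mean log2(FPKM + 1) of 6 gene lists in each tumor (bars; blue for SS18-SSX1, red for SS18-SSX2; the number of genes is in each title). Mast cell markers reach 6.01 in SS18-SSX1 tumor 3 and 0.86 to 2.60 elsewhere, while Kit signalling stays between 3.16 and 3.73.

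Of the factors other than Kitl that feed or attract mast cells, 8 of 13 were in the table and 4 were tested, with 0 called (1 with an unadjusted p under 0.05). Cxcl12, a chemokine of stromal cells, was at 43.4, 52.5 and 41.3 FPKM with SS18-SSX1, against 27.5, 26.4 and 25.2 FPKM with SS18-SSX2. Its groups did not overlap, beside 8.72% of all tested genes, and 3.76% without overlap and lower with SS18-SSX2. The log2 difference of -0.76 (SE 0.23) did not pass (limma adjusted p = 0.693). Il33, the ligand of Il1rl1, was at 0.0260, 4.18 and 0.336 FPKM and at 1.36, 4.14 and 0.555 FPKM, and so was second lowest in the tumor with most Il1rl1. Tgfb1 lay between 8.83 and 18.7 FPKM in all tumors. Ccl2 reached 3.71 FPKM in SS18-SSX1 tumor 3, and Ccl5 reached 3.48 and 3.86 FPKM in tumor 2 of each genotype.

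The genes most like Cpa3 were sought among 13930 genes with a mean of at least 1 FPKM, by the root mean square difference between profiles of log2(FPKM + 1) over the 6 tumors, each centred on its own mean. Among the members this difference was 0.16 for Mcpt4, 0.28 for Cma1, 0.35 for Tpsb2 and 0.35 for Fcer1a, 0.97 for Ms4a2, 1.42 for Kit, 1.45 for Hdc, 1.77 for Kitl and 2.59 for Gata2. Outside the members the 8 nearest were Mrgprb1 (0.70), Il1rl1 (0.82), Serpinb1a (0.84), Rasl10b (1.00), Rprl1 (1.02), Mrgprb2 (1.03), Rprl2 (1.03) and Car2 (1.08), of which 3 were on the mast cell lists. Mcpt4, Cma1, Tpsb2 and Fcer1a were thus closer to Cpa3 than any gene outside the members. The profiles were not scaled, and the added 1 shrinks the changes of low genes, so nearness also depends on a gene's level. Serpinb1a, an inhibitor of neutrophil serine proteases, had 80.9 FPKM in SS18-SSX1 tumor 3 and 0.753 to 6.64 FPKM elsewhere. Car2, a carbonic anhydrase, had 141 FPKM there and 0.692 to 5.91 FPKM elsewhere. Rasl10b, a small GTPase of the Ras family, had 35.1 FPKM there and next most in SS18-SSX1 tumor 1, with at most 0.582 FPKM in the other 4 tumors. Rprl1 and Rprl2 are RNA genes that resemble the RNA of ribonuclease P, at 90.3% identity to each other over 290 bases, so how reads were shared between such copies makes their values uncertain.

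For Kitl the 4 nearest genes were Kcne3 (0.27), a potassium channel subunit, the histone gene Hist1h4a (0.40), Ctla2a (0.42), an inhibitor of cysteine proteases, and Casd1 (0.45), an enzyme that acetylates sialic acid. Kit was at 0.65 and the other members at 0.98 to 1.77, so none of the 4 nearest was a mast cell gene on the lists. Casd1 was at 14.3, 8.83 and 44.1 FPKM with SS18-SSX1, against 31.1, 11.7 and 15.3 FPKM with SS18-SSX2. Its top and next tumor were those of Kitl. With 6 tumors, many genes can lie near a given profile, and nearness was not tested.

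**Figure D4:**
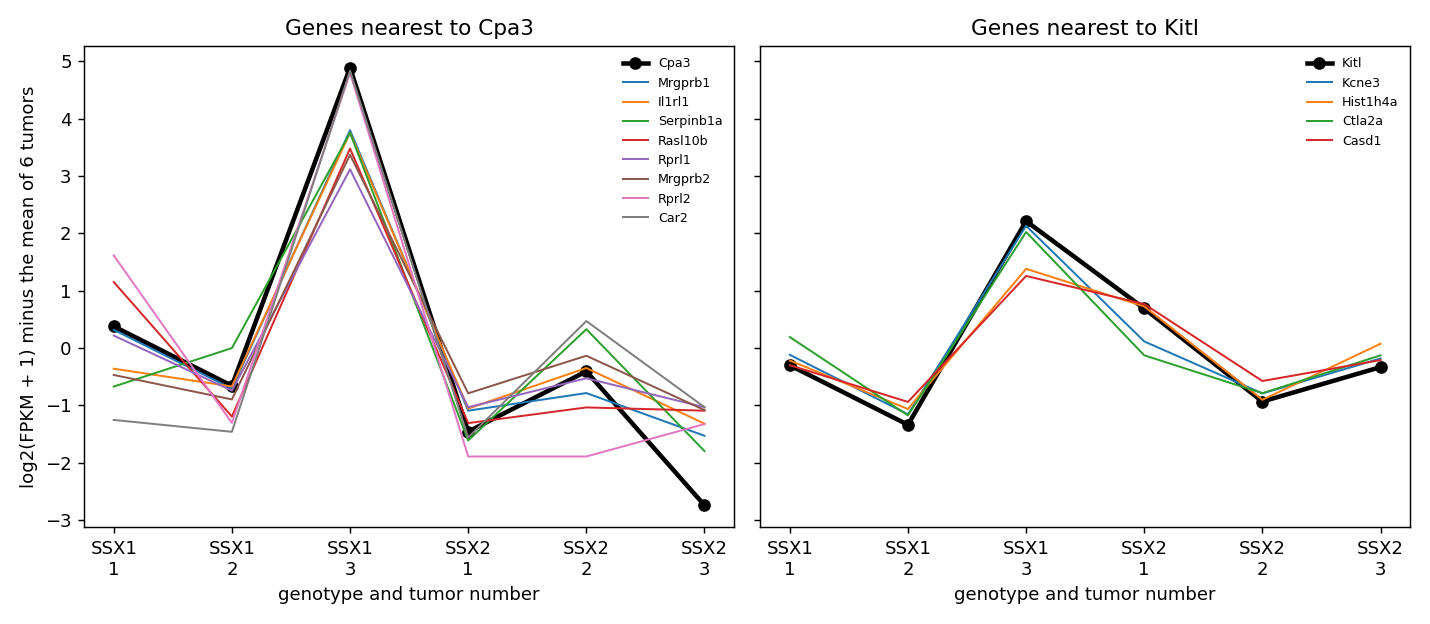
Profiles over the 6 tumors, as log2(FPKM + 1) minus each gene's mean, for Cpa3 with its 8 nearest genes (left) and Kitl with its 4 nearest (right), the reference in black. Both peak in SS18-SSX1 tumor 3, while in SS18-SSX2 tumor 1 Kitl lies above its mean and Cpa3 below.

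On GRCm38, the build that mm10 also names, Cpa3 (ENSMUSG00000001865) spans 20215620 to 20242181 on chromosome 3. Cma1 (ENSMUSG00000022225) spans 55941451 to 55944675 and Mcpt4 (ENSMUSG00000061068) 56059629 to 56062313 on chromosome 14, both on the minus strand in the chymase locus. Their transcripts align at 68.2% identity over 682 bases. Those of Mcpt4 align more closely to Cma2 (85.3% over 912 bases), Mcpt9 (84.9% over 812) and Mcpt1 (82.5% over 998). For Cma1 the closest by identity was Gm48934, at 96.9% over 295 bases. For Ms4a2 it was Ms4a4b, at 79.5% over 1298 bases. How reads were shared between such copies was not tested. Tpsb2 (ENSMUSG00000033825) spans 25366305 to 25369098 and its neighbour Tpsab1 25343245 to 25345562 on chromosome 17. Kit (ENSMUSG00000005672) spans 75574916 to 75656722 on chromosome 5, and Kitl (ENSMUSG00000019966) 100015630 to 100100416 on chromosome 10. Hdc (ENSMUSG00000027360) spans 126593667 to 126619299 on chromosome 2, Ms4a2 (ENSMUSG00000024680) 11615523 to 11623719 on chromosome 19, Fcer1a (ENSMUSG00000005339) 173221284 to 173227214 on chromosome 1, and Gata2 (ENSMUSG00000015053) 88193891 to 88207032 on chromosome 6. The exons of the 10 members overlapped those of no other annotated gene.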

How the data were processed

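RNA was measured in 6 tumors, 3 per genotype. Per the labels' protocols, snap-frozen tumors gave total RNA (Qiagen RNeasy) and Ribo-Zero libraries. Per the submitters' processing notes, the tool Novoalign 2.08.03 and the build mm10 were involved. No counting method or gene models were given in the sources used here. The authors deposited FPKM values, 1 column per tumor, matched to tumors by the samples' descriptions. Symbols came from GENCODE M21, for 17029 of 17312 genes.

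Genes with at least 1 FPKM in at least 3 tumors (13873) went, as log2(FPKM + 1), into limma 3.58.1 under R 4.3.3 (eBayes with trend, two-sided, Benjamini-Hochberg, 0.05). Library totals and reads were recovered from the steps between low values, using genes with a single exon: 76.9% to 81.3% of low values were whole within 0.02 reads. Recovered reads served only to describe depth and counting error. The recovery of library totals was tested on simulated data, as was limma. The limma simulation changed only well expressed genes with a small spread within genotypes, unlike the proteases and Fcer1a. It therefore does not show whether limma could call genes with so wide a spread. A gene's reads also need its length. Where no annotated length gave whole reads in every tumor, a length that did was searched for, as for Cpa3, Mcpt4, Ms4a2 and Fcer1a. That search was not tested. It gave 1026 bases for Fcer1a, whose annotated exons total 998, so these read counts and their intervals are estimates. Transcripts were aligned with blastn 2.17.0. Promoters are from RefSeq (GRCm38.p6). Tables and figures used Python 3.11.15, pandas 2.3.3 and matplotlib 3.10.9.

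The members and lists were chosen with earlier results of these data known. Named were all members, up to 6 genes per mast cell or signalling list with the highest mean, and the 8 and 4 genes nearest to Cpa3 and Kitl. A gene that this rule names is not reported here. Prss34, Ccr3, Ddx3y and Xist were named as checks, and Tpsb2 to Tpsab1 ratios were chosen after values were seen. Alternatives were another pseudocount, no filter, quantile normalization, TPM, no trend, a replicate block and left-out tumors.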

Additional observations from a re-analysis of the deposited data

How the results depend on the processing

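For the 10 genes, 129 of 130 values under 13 other settings kept the direction and the side of the threshold of the value given above, and 0 were called. The exception was Kitl, which reversed to 0.63 without SS18-SSX1 tumor 3, in a range of -1.15 to 0.63 without each tumor in turn. The cause was not tested beyond that tumor's high Kitl value. Dropping the filter, dropping the trend and adding the replicate block leave the log2 difference unchanged by design, so those directions could not reverse. Over all other settings the size moved, from -2.70 to -0.28 for Ms4a2 and from -4.19 to -0.80 for Fcer1a. The lowest adjusted p of any of the 10 genes was 0.317, for Mcpt4 without both tumors numbered 2 (limma). The count of genes called over the whole table was 9, with 5 at a pseudocount of 0.1, 20 without both tumors numbered 2, and 3 to 11 without each tumor in turn, the lowest count being without SS18-SSX2 tumor 3. The cause was not tested. With the tumor number as a replicate block 4 genes were called. Same-numbered tumors also share the first letter of their descriptions, whose meaning is not given, and both tumors numbered 2 had high muscle sums and high B and plasma cell sums (119 and 970.4 FPKM, against 4.86 to 9.69 FPKM elsewhere). The labels name no shared animal, litter or day, and deviations from the genotype means correlated at 0.38, 0.31 and -0.28 for tumors 1, 2 and 3, and not every tumor correlated best with its own number. Depth limits Ms4a2, Fcer1a and Hdc in the SS18-SSX2 tumors, where they had 3 to 32 reads.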
